A study of Mus with 12 samples.

Results

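The genes described here encode 8 proteins of the red cell membrane and its spectrin skeleton, and all 8 were found by gene name among the 25247 genes of the blood table. They are Slc4a1, Ank1, Sptb, Epb41, Epb42, Gypc, Rhag and Kel, and they were chosen for their function, with earlier results of these data known. The blood came from female BALB/c mice, 6 weeks old at purchase and bled on day 30, and gave 12 RNA libraries in 4 groups of 3. The sources used here do not say whether each library came from 1 mouse. The Solvent group received only the acetone and olive oil vehicle on the skin. The DNCB group was sensitised with 1% and then repeatedly challenged with 0.5% 1-chloro-2,4-dinitrobenzene (DNCB), a skin sensitiser used to model atopic dermatitis. The scMSC and scivMSC groups received the same DNCB and also human umbilical cord mesenchymal stem cells (MSCs), 2e6 cells per dose. In scMSC the whole 100 µL went under the skin beside the lesion, while in scivMSC 50 µL went under the skin and 50 µL into the tail vein. No group received MSCs without DNCB, and none received DNCB with an injection free of cells, so the injection and the cells cannot be told apart.

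The mature red cell keeps its shape through a mesh of spectrin tetramers under the lipid bilayer. The mesh is tied to the membrane at vertical anchor points. At the first, ankyrin (Ank1) links beta-spectrin (Sptb) to the anion exchanger band 3 (Slc4a1), which protein 4.2 (Epb42) stabilises and with which the Rh-associated glycoprotein (Rhag) is grouped. At the other, protein 4.1 (Epb41) joins spectrin and actin to glycophorin C (Gypc). Kel, the Kell blood group metalloprotease, is linked to the Xk protein close to the protein 4.1 complex. Inherited defects in Ank1, Slc4a1, Sptb or Epb42 cause hereditary spherocytosis, and defects in Epb41 cause hereditary elliptocytosis. Circulating red cells have no nucleus, so their transcripts in blood come mainly from reticulocytes, the youngest circulating red cells.

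The libraries were dominated by red cell RNA, as the label blood implies. The 12 libraries held 52.2e6 to 65.1e6 estimated counts, and the 10 haemoglobin genes took 78.4% to 89.0% of them. The mean share was lowest in the DNCB group (81.2% ± 2.40, SD, n = 3) and highest in the scivMSC group (87.3% ± 2.13, SD, n = 3), with an exact permutation p of 0.0492 over the 4 groups. That p was 0.102 without scivMSC replicate 2 and 0.101 without DNCB replicate 2, and over all 12 omissions of 1 library it lay between 0.00786 and 0.102. Reticulocyte and late erythroid markers were present in every library, with a summed level of 4862 to 6323 fragments per kilobase and per 1e6 fragments (FPKM). In scivMSC replicates 2 and 3, 11806 and 13159 genes had at least 4 counts, against 14974 to 17350 in the other 10 libraries, scivMSC replicate 1 among them. Neutrophil markers summed to 6640 to 10447 FPKM in DNCB and 217 to 693 FPKM in the other 3 groups. In bulk blood, fewer cells of a type and less RNA per cell cannot be told apart.

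Compared per length, band 3 and protein 4.1 stood far above the other members. The mean FPKM over the 12 libraries was 53.5 for Slc4a1 and 39.6 for Epb41. It was 3.30 for Epb42, 3.12 for Sptb, 2.22 for Kel and 1.62 for Gypc. Rhag and Ank1 were lowest, at 0.608 and 0.605. The order of neighbours was not fixed. Epb41 exceeded Slc4a1 in Solvent replicate 3 and DNCB replicate 2, Epb42 ranked anywhere from the third to the sixth place, and Rhag and Ank1 changed places between libraries. Rhag varied most, 6.89-fold between its lowest and highest library with 29 to 169 counts, and Kel varied least, 2.19-fold. At about 4 counts per sequenced fragment, the lowest Rhag library rests on about 7.25 fragments, and Gypc rests on 28.5 to 93.8 fragments, so both carry a large counting error. Ank1 and Rhag did not reach an FPKM of 1 in 3 libraries, the minimum for testing, which left 6 of the 8 members among 5527 tested genes.

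**Figure D1:**
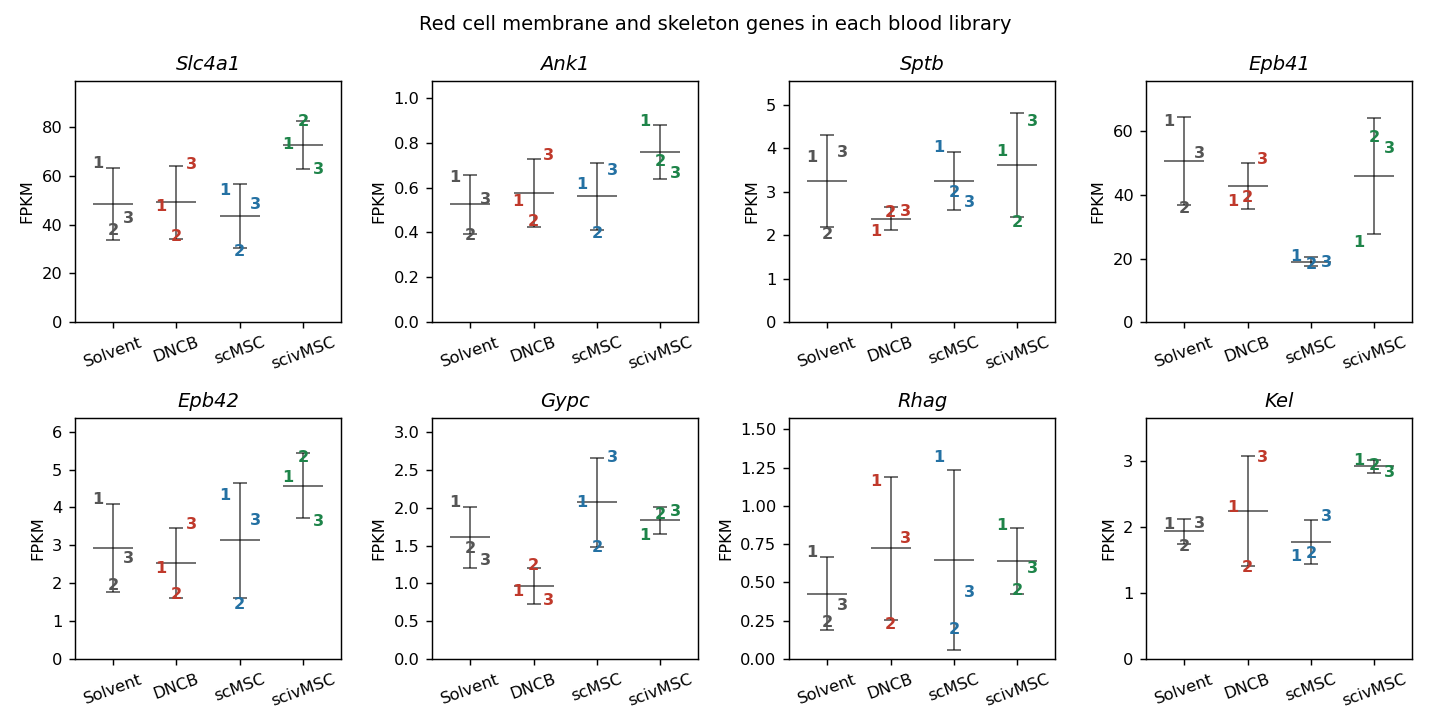
Level of each member in FPKM (vertical axis, from 0) in the 12 blood libraries, by group (horizontal axis). Digits are replicate numbers, the long horizontal line is the group mean and the bars are ± 1 SD (n = 3). The 3 scMSC libraries of Epb41 lie at 18.1 to 20.5, below all other libraries, the lowest of which is scivMSC replicate 1 at 25.1.

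Protein 4.1 was lower in scMSC than in each other group when libraries were scaled by total counts. Epb41 (ENSMUSG00000028906, chromosome 4, 131923413 to 132075321, minus strand) had FPKM values of 63.2, 35.7 and 53.2 in Solvent and 38.0, 39.1 and 51.2 in DNCB. It had 20.5, 18.1 and 18.6 in scMSC and 25.1, 58.1 and 54.6 in scivMSC. All scMSC libraries were lower than every other library, and scivMSC replicate 1 lay nearer to them than to its own group. Of the 6 tested members, edgeR's F test over the 4 groups passed Epb41 alone (adjusted p = 0.00145). By the same test 72.3% of all tested genes passed.

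In scMSC against DNCB, Epb41 was lower by a log2 fold change of -1.18 (SE 0.27, edgeR adjusted p = 0.00497), a level 0.442 times that in DNCB. Against Solvent its log2 fold change in scMSC was -1.42 (SE 0.28, edgeR adjusted p = 0.0293). The direct contrast of scivMSC with scMSC gave 1.27 (SE 0.27, edgeR adjusted p = 0.0104), 2.42 times the scMSC level. That difference rests largely on scivMSC replicates 2 and 3, which also had the fewest detected genes. With replicate 1 as the only scivMSC library it was 0.41, where the median of all tested genes was -0.37. In scivMSC against DNCB the value was 0.10 (95% interval -0.47 to 0.67, edgeR adjusted p = 0.762), and DNCB against Solvent gave -0.24 (95% interval -0.81 to 0.33, edgeR adjusted p = 0.577). The scivMSC against DNCB value was 0.39 without scivMSC replicate 1 and -0.77 with that replicate alone. The call against Solvent was lost without Solvent replicate 1 or 3 or any of the scMSC libraries, with values of -1.62 to -1.23 over all 12 omissions of 1 library, and that against DNCB held in all 12.

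These values rest on scaling each library by its total counts, the scale of the FPKM values. TMM scaling, which takes most genes as unchanged, raised every scivMSC value, since the median of all tested genes in scivMSC against DNCB was -1.53 by total counts and 0.04 by TMM. In scMSC against DNCB the medians were -0.63 and 0.06. Under TMM the Epb41 change in scMSC was -0.52 against DNCB (edgeR adjusted p = 0.39) and -0.88 against Solvent (edgeR adjusted p = 0.202), neither of them called, while scivMSC against scMSC was 2.42 (edgeR adjusted p = 0.00364). Scaling by the summed haemoglobin counts gave -1.25 in scMSC against DNCB (edgeR adjusted p = 0.00305). Gm10300, an antisense gene that shares 625 bases with the end of Epb41, had at most 36 counts in any library, where Epb41 had at least 18391.

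Band 3, the most abundant member, passed no test by total counts and was called higher in scivMSC under TMM. Slc4a1 (ENSMUSG00000006574, chromosome 11, 102348824 to 102365280, minus strand), which exchanges chloride for bicarbonate, had FPKM values of 65.1, 37.5 and 42.6 in Solvent and 47.5, 35.0 and 64.8 in DNCB. Its values were 54.0, 28.9 and 48.2 in scMSC and 72.9, 82.5 and 62.8 in scivMSC. The scivMSC libraries lay above all scMSC libraries but overlapped the highest Solvent and DNCB libraries. The log2 fold change was 0.74 in scivMSC against scMSC (SE 0.28, edgeR adjusted p = 0.0545) and 0.56 in scivMSC against DNCB (SE 0.28, edgeR adjusted p = 0.0873). DNCB against Solvent gave 0.02 (95% interval -0.57 to 0.62) and scMSC against DNCB gave -0.18 (95% interval -0.77 to 0.42), the former below 0 and the latter above 0 under TMM, at -0.04 and 0.42. In scivMSC the TMM values were 2.24 against DNCB (edgeR adjusted p = 0.000259), 2.20 against Solvent and 1.83 against scMSC, all called.

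Epb42 and Ank1, whose proteins bind band 3 on its inner face, had their highest group mean in scivMSC, and neither passed a test by total counts. Epb42 (ENSMUSG00000023216, chromosome 2, 121017891 to 121037072, minus strand) had FPKM values of 4.20, 1.94 and 2.66 in Solvent, 2.38, 1.71 and 3.54 in DNCB, 4.32, 1.43 and 3.65 in scMSC and 4.80, 5.31 and 3.63 in scivMSC. Its scivMSC libraries were all above those of DNCB, with 3.63 against 3.54 as the nearest pair, and the log2 fold change was 0.84 (SE 0.41, edgeR adjusted p = 0.0805). Without DNCB replicate 3 it was 1.16 and called. Under TMM it was 2.52 (edgeR adjusted p = 0.000408), and Epb42 was also called in scivMSC against Solvent and scMSC, at 2.26 and 1.66. Ank1 (ENSMUSG00000031543, chromosome 8, 22974844 to 23150497, plus strand) had 0.645, 0.385 and 0.545 in Solvent, 0.538, 0.450 and 0.744 in DNCB, 0.614, 0.394 and 0.675 in scMSC and 0.896, 0.715 and 0.663 in scivMSC. The scivMSC libraries were above all Solvent libraries and overlapped DNCB. In a fit without the filter on low values, Ank1 had a log2 fold change of 0.52 in scivMSC against Solvent (SE 0.39, edgeR adjusted p = 0.334).

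Beta-spectrin had its lowest group mean in DNCB, and no contrast passed by total counts. Sptb (ENSMUSG00000021061, chromosome 12, 76580488 to 76710547, minus strand) had FPKM values of 3.79, 2.02 and 3.91 in Solvent and 2.08, 2.51 and 2.55 in DNCB. It had 4.01, 2.98 and 2.75 in scMSC and 3.92, 2.28 and 4.62 in scivMSC. The scMSC and DNCB libraries did not overlap, whereas Solvent and scivMSC spread over the whole range. The log2 fold change was 0.44 in scMSC against DNCB (SE 0.33, edgeR adjusted p = 0.33) and -0.44 in DNCB against Solvent (SE 0.33, edgeR adjusted p = 0.37). Under TMM the former was 1.11 and called (edgeR adjusted p = 0.0113), and scivMSC was called higher than DNCB at 2.20, Solvent at 1.60 and scMSC at 1.10.

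Glycophorin C was lowest in DNCB. Gypc (ENSMUSG00000090523, chromosome 18, 32528322 to 32560034, minus strand) had FPKM values of 2.06, 1.46 and 1.30 in Solvent and 0.893, 1.23 and 0.773 in DNCB. It had 2.07, 1.48 and 2.66 in scMSC and 1.63, 1.92 and 1.95 in scivMSC. Every DNCB library lay below every library of the other groups. The log2 fold change was 1.08 in scMSC against DNCB (SE 0.39, edgeR adjusted p = 0.0464), which was called. It was 0.92 in scivMSC against DNCB (SE 0.39, edgeR adjusted p = 0.0452), short of 2-fold, and -0.73 in DNCB against Solvent (SE 0.39, edgeR adjusted p = 0.202). Under TMM the DNCB against Solvent value was -0.89 (edgeR adjusted p = 0.0287), also short of 2-fold. The call in scMSC against DNCB was near the threshold and held in 9 of 22 alternatives. It was lost when any of the 3 DNCB or the 3 scMSC libraries was left out, and without Solvent replicates 2 or 3 or scivMSC replicate 3, with values of 0.86 to 1.30 over all 12 omissions. With haemoglobin scaling the value was 1.00 (edgeR adjusted p = 0.0839). The neutrophil marker sum, at 6640 to 10447 FPKM in DNCB and at most 693 elsewhere, moved opposite to Gypc with a Pearson correlation of -0.66 over the 12 libraries, and its part in the Gypc values was not tested.

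The Kell protease gene had its highest group mean in scivMSC, and no contrast passed by total counts. Kel (ENSMUSG00000029866, chromosome 6, 41686330 to 41704339, minus strand) had FPKM values of 2.04, 1.71 and 2.06 in Solvent, 2.29, 1.39 and 3.05 in DNCB, 1.56, 1.60 and 2.16 in scMSC and 3.01, 2.93 and 2.83 in scivMSC. The scivMSC libraries were above those of Solvent and scMSC and overlapped DNCB, whose own range was wider. The log2 fold change was 0.72 in scivMSC against scMSC (SE 0.36, edgeR adjusted p = 0.12) and 0.59 in scivMSC against Solvent (SE 0.36, edgeR adjusted p = 0.151). Under TMM Kel was called higher in scivMSC, at 2.01 against DNCB (edgeR adjusted p = 0.000682), 2.11 against Solvent and 1.74 against scMSC. Xk, the transporter-like protein that carries Kell on the membrane, was below the minimum for testing, at 0.193 to 0.658 FPKM. The ratio of Kel to Xk ranged from 2.11 in DNCB replicate 2 to 13.8 in DNCB replicate 3.

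The Rh complex was sparse. Rhag (ENSMUSG00000023926, chromosome 17, 40811126 to 40840754, plus strand), an ammonia channel protein, had FPKM values of 0.692, 0.235 and 0.349 in Solvent and 1.16, 0.228 and 0.786 in DNCB. It had 1.31, 0.191 and 0.436 in scMSC and 0.874, 0.449 and 0.588 in scivMSC. All 4 groups overlapped. In the fit without the filter, the difference between DNCB and Solvent was 0.75 on the log2 scale, with an SE of 0.69 (edgeR adjusted p = 0.587). Over both members below the minimum, 0 of 12 contrasts were called by edgeR, 0 had an unadjusted p under 0.05, and the lowest adjusted p was 0.334. Over all 25247 genes that fit called, against Solvent, 4.67% in DNCB, 0.412% in scMSC and 29.2% in scivMSC. It called 4.90% in scMSC and 23.6% in scivMSC against DNCB, and 9.10% between both MSC groups. Under TMM the unfiltered fit called Ank1 higher in scivMSC against each of the other groups, at 1.76 against DNCB, and Rhag higher in scivMSC against Solvent, at 2.14, where it called 6.02% of all genes higher against DNCB, 7.46% against Solvent and 3.51% against scMSC. Rhd, the mouse Rh protein that assembles with Rhag, had means of 1.52 ± 0.391 in Solvent, 2.11 ± 0.266 in DNCB, 1.98 ± 1.18 in scMSC and 2.49 ± 0.379 in scivMSC (SD, n = 3), with no call by total counts, and was called higher under TMM in scivMSC against DNCB (1.87), Solvent (2.24) and scMSC (1.39).

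Over the 6 tested members by total counts, DNCB against Solvent called 0 by edgeR, where 20.5% of all tested genes were called. Of these members 0 had an unadjusted p under 0.05. TMM also called 0, where it called 16.1% of all tested genes higher and 11.5% lower. Gypc had an edgeR adjusted p of 0.0287 under TMM, at -0.89, short of 2-fold. DESeq2 and limma on log2(FPKM + 1) also called 0, where they called 28.3% and 16.4% of all tested genes. Adding 1 shrinks fold changes at low FPKM, as for Epb42, Sptb, Kel and Gypc, so limma counts say little about 2-fold changes in these members. A missed threshold does not show that levels were alike, as the 95% intervals above show. The comparison asks what the sensitiser alone changed, and the members' log2 fold changes ran from -0.73 for Gypc to 0.21 for Kel around a median of -0.22, against 0.06 for all tested genes. Groups did not overlap for 1 member, Gypc, against 41.5% of all tested genes.

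In scMSC against DNCB, 2 of 6 members were called, Gypc higher and Epb41 lower, where 26.1% of all tested genes were called, 1.27% higher and 24.9% lower. The groups did not overlap for 3 members (Sptb, Epb41 and Gypc), against 55.3% of all tested genes. The members' median was 0.05 and that of all tested genes -0.63. Under TMM the members called were Gypc and Sptb, both higher, where TMM called 8.74% of all tested genes higher. Against Solvent, Epb41 was the 1 member called in scMSC, where 0.651% of all tested genes were called, 0.326% lower, and the groups did not overlap for Epb41 alone, against 47.6% of all tested genes.

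In scivMSC against DNCB, 0 of 6 members were called, where 63.4% of all tested genes were called, 62.0% lower and 1.43% higher. The groups did not overlap for Epb42 and Gypc, against 73.3% of all tested genes. Of the members, 1 (Gypc) had an unadjusted p under 0.05. Limma on log2(FPKM + 1), which shrinks the changes of members at low FPKM, also called 0, where it called 36.3% of all tested genes. DESeq2 with its own size factors called 6 higher, where it called 20.9% higher. All 6 log2 fold changes were above 0, from 0.10 for Epb41 to 0.92 for Gypc, with a median of 0.58 where the median of all tested genes was -1.53. With haemoglobin scaling Epb41 lay on the other side of 0, at -0.02. Under TMM all 6 members were called higher, with log2 fold changes of 1.90 to 2.67, where TMM called 20.6% of all tested genes higher. Relative to the median of all tested genes the members lay 1.62 to 2.44 higher by total counts, a distance that a change of scaling leaves nearly as it is by construction. Other blood lists lay above that median too. Of 15 tested reticulocyte and late erythroid markers TMM called 14 higher, with a median of 2.15 by TMM and 0.47 by total counts, and of 8 platelet markers it called 7 higher, with medians of 1.93 and 0.22. The medians of the T cell and B cell markers by total counts were -0.81 and -1.80. With replicate 1 as the only scivMSC library the median of all tested genes was -1.04 by total counts, and that of the members was 0.64. Under TMM these medians were 0.01 and 1.64, and Epb41 was the lowest member at 0.23. The part of the low number of detected genes in scivMSC replicates 2 and 3 in the other values was not tested.

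Against Solvent, scivMSC called 0 of 6 members, 0 at an unadjusted p under 0.05, where 61.8% of all tested genes were called. Limma on log2(FPKM + 1), with the same shrinkage at low FPKM, also called 0, where it called 32.0% of all tested genes. DESeq2 called 6 higher, where it called 23.5% higher. The groups did not overlap for Kel, against 68.7% of all tested genes. TMM called all 6 members higher, where it called 22.4% of all tested genes higher. Relative to the median of all tested genes the members were 1.32 to 2.10 higher by total counts. The contrast of scivMSC with scMSC sets 50 µL under the skin and 50 µL into the tail vein against 100 µL under the skin. Route and dose under the skin therefore cannot be told apart in it. In this contrast 1 of 6 members was called (Epb41, higher) where 30.8% of all tested genes were called, 0.344% higher and 30.4% lower. TMM called 5 of 6 members higher, all but Gypc, where it called 13.1% of all tested genes higher. Groups did not overlap for Slc4a1, Epb41 and Kel, against 50.5% of all tested genes. The comparisons with DNCB share the DNCB libraries, and those with Solvent share the Solvent libraries.

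**Figure D2:**
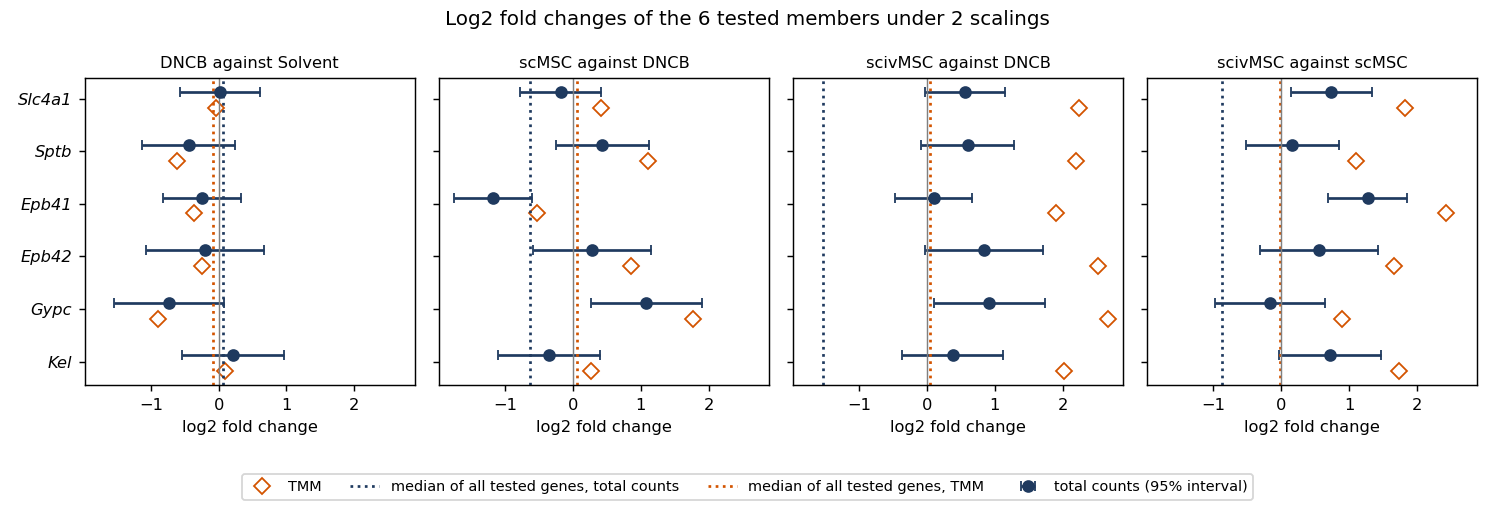
Log2 fold changes (horizontal axis) of the 6 tested members (vertical axis) in 4 comparisons. Filled circles are total count scaling with 95% intervals, open diamonds are TMM scaling, and dotted lines are the median of all 5527 tested genes under each scaling. In scivMSC against DNCB the circles lie between 0.10 and 0.92 and the diamonds between 1.90 and 2.67.

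The members fell into a tight group and looser ones when followed across the 12 libraries. All correlations here are Pearson correlations of log2(FPKM + 1), given as descriptions, since the libraries share group and composition. Slc4a1 and Epb42 followed each other most closely (0.94), then Slc4a1 and Ank1 (0.89), Ank1 and Epb42 (0.89), Slc4a1 and Kel (0.81) and Ank1 and Kel (0.81). With group means removed, Slc4a1 and Epb42 were at 0.98 and Slc4a1 and Ank1 at 0.86. Over all 28 pairs the median was 0.39, and the lowest was -0.28 for Epb41 and Gypc, the protein 4.1 complex partners. That pair was at 0.28 with group means removed. The correlations with the summed reticulocyte and late erythroid markers, of which the haem synthesis gene Alas2 made up 77.5% to 84.5%, were 0.88 for Ank1, 0.86 for Slc4a1, 0.83 for Epb42 and 0.73 for Kel. They were 0.55 for Rhag, 0.45 for Sptb, 0.35 for Epb41 and 0.02 for Gypc.

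**Figure D3:**
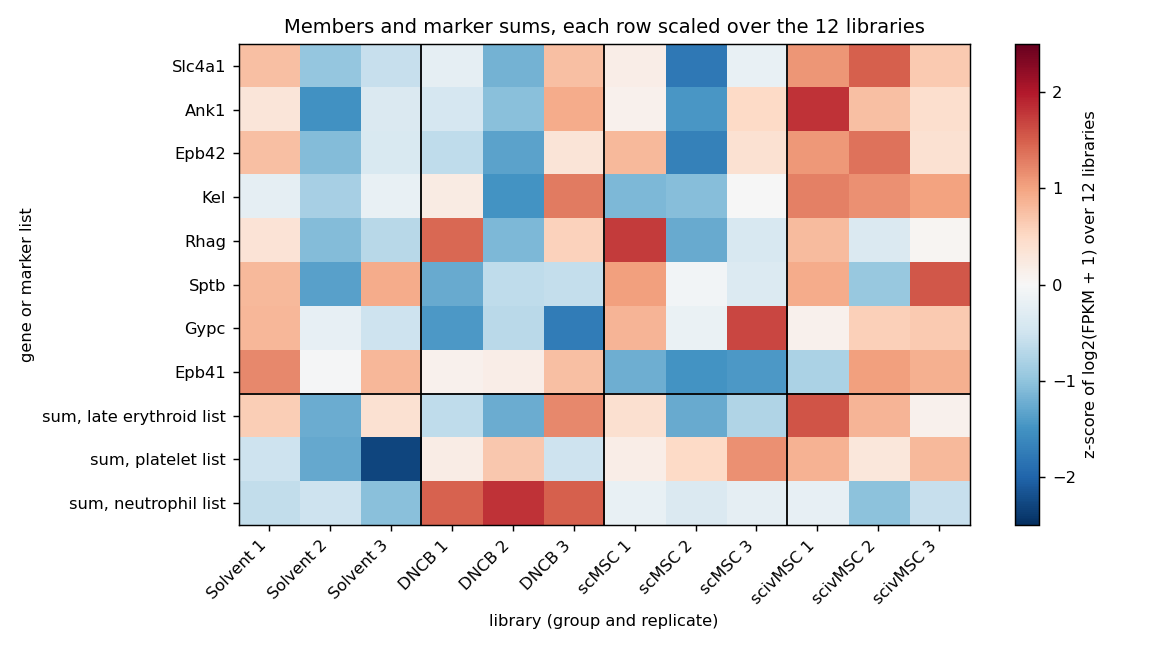
Members (upper rows) and summed marker lists (lower rows) in the 12 libraries (columns), each row as a z-score of log2(FPKM + 1) over the libraries, from blue (low) to red (high). Slc4a1, Ank1 and Epb42 share their low libraries (replicate 2 of Solvent, DNCB and scMSC), Gypc is lowest in DNCB, where the neutrophil sum is highest, and Epb41 is lowest in scMSC.

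For each member the tested genes most like it were taken, so that a shared pattern follows from the choice and the levels below are a description. Slc4a1 was closest to Cd24a (0.97), Car2 (0.96) and Fam210b (0.96), of which Car2 is a carbonic anhydrase of red cells. Cd24a ranged from 76.0 FPKM in scMSC replicate 2 to 130.4 in scivMSC replicate 2. Genes close to Epb42 were Prxl2a (0.97) and Cd24a (0.96), and Ank1 was closest to Tmcc2 (0.96), Prxl2a (0.95) and Fis1 (0.94). Kel was closest to Cox6b2 (0.90), Iscu (0.82) and Fzr1 (0.81). Rhag was closest to the transferrin receptor Tfrc (0.84), Mpst (0.78) and Rhd (0.76), and the highest Tfrc value was 6.31 FPKM in scMSC replicate 1.

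The remaining members had looser neighbours. Epb41 was closest to Pttg1 (0.83), Fundc2 (0.81) and the histone gene H2bc8 (0.80). Their scMSC means were 11.9 ± 1.78, 10.4 ± 0.546 and 0.724 ± 0.0526 FPKM (SD, n = 3). Gypc was closest to Birc2 (0.89), an inhibitor of apoptosis, to Crat (0.89), carnitine acetyltransferase, and to Pygb (0.85), glycogen phosphorylase. Their DNCB means were 3.21 ± 0.703, 2.77 ± 0.342 and 1.92 ± 0.402 FPKM (SD, n = 3). Sptb was closest to Sp3os (0.83), Specc1 (0.81) and Napa (0.79). These neighbours were taken from 5527 genes on 12 libraries.

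The wider red cell membrane was followed in a list of 42 genes that includes the 8 members, of which 27 were tested. In DNCB against Solvent, 2 of 27 were called, both higher, where 15.6% of all tested genes were called higher. They were Actb, beta-actin, which is the skeleton's short filament in red cells and abundant in white cells (log2 fold change 1.21, edgeR adjusted p = 0.00601), and the adhesion receptor Cd44 (2.05, edgeR adjusted p = 0.001). Cd44 had 15.4, 21.3 and 14.1 FPKM in DNCB and 3.51 to 5.18 in Solvent. White cells express both, and the part of the neutrophil markers, which were also highest in DNCB, was not tested. TMM called 3 of 27 higher and 1 lower, where it called 16.1% of all tested genes higher and 11.5% lower.

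In scMSC against DNCB, 6 of 27 were called, 2 higher and 4 lower, where 1.27% of all tested genes were called higher and 24.9% lower. The split was 5 higher and 1 lower under TMM, which called 8.74% of all tested genes higher and 12.3% lower, and 0 higher and 6 lower under haemoglobin scaling, which called 1.07% higher and 26.2% lower. Besides Gypc, stomatin (Stom), an integral membrane protein bound to lipid rafts, was higher (1.01, edgeR adjusted p = 0.00749), with 23.9, 27.2 and 26.7 FPKM against 12.7, 14.1 and 11.3, although its value under haemoglobin scaling, 0.93, was short of 2-fold. Besides Epb41, those lower were Actb (-1.56, edgeR adjusted p = 0.00117), Cd44 (-1.21, edgeR adjusted p = 0.0235) and the glucose transporter Slc2a1 (-2.23, edgeR adjusted p = 0.00269). Under TMM, Slc2a1 was still called lower and Actb, Cd44 and Epb41 were not.

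In scivMSC against DNCB, 7 of 27 were called, 1 higher and 6 lower, where 1.43% of all tested genes were called higher and 62.0% lower, with 20 of 27 log2 fold changes above 0. The higher one was Tmod1, tropomodulin, which caps the actin filaments at their pointed ends. It had 4.09, 3.28 and 2.81 FPKM against 1.30, 1.15 and 2.14 in DNCB, without overlap (1.14, SE 0.43, edgeR adjusted p = 0.0253). Tmod1 overlaps another gene, Tstd2, on the opposite strand. The adducins Add1 (-1.29) and Add3 (-2.03), the tropomyosin gene Tpm3 (-1.25), Actb (-2.67), Cd44 (-2.57) and Slc2a1 (-3.64) were lower, with edgeR adjusted p values from 5.48e-06 to 0.0054. Under TMM, 23 of the 27 were called, 21 higher and 2 lower (Actb and Slc2a1), where 20.6% of all tested genes were called higher and 18.9% lower, and Add1 and Tpm3 were above 0, at 0.31 and 0.45. The median of the 27 was 0.38 by total counts and 2.02 by TMM. Dmtn, dematin, an actin-bundling partner of spectrin, was below the minimum for testing at 0.201 to 0.509 FPKM.

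**Figure D4:**
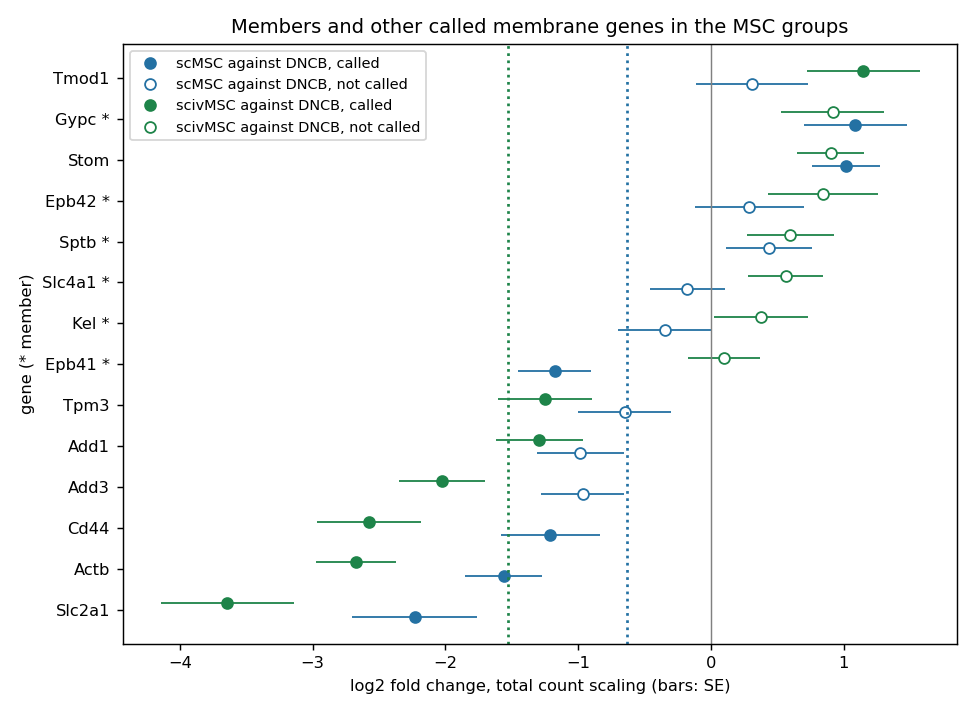
Log2 fold changes by total count scaling (horizontal axis, bars are ± 1 SE) of the tested members (starred) and of the other listed membrane genes called in DNCB against Solvent or in an MSC group against DNCB (vertical axis), in scMSC (blue) and scivMSC (green) against DNCB. Filled points are called and dotted lines mark the median of all tested genes in each comparison, -0.63 and -1.53. In scivMSC all starred points lie above 0 (Epb41 was at -0.02 under haemoglobin scaling), and the 6 genes called lower are Slc2a1, Actb, Cd44, Add3, Add1 and Tpm3.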

How the data were processed

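Blood RNA was sequenced in 12 libraries, 3 in each of 4 groups named in the sample labels. The authors deposited a single table that holds, in 24 columns, FPKM values and estimated counts of each gene in each library. Per the submitters' processing notes HISAT2 2.0, StringTie 1.3.0, Bowtie 0.12.2 and the mouse build mm8 were used, with no roles given, and strand assignment is not given in the sources used here. Coordinates are printed as the deposited table gives them. Both ends of 76.05% of 21414 shared gene symbols lay within 1000 bases of RefSeq GRCm38.p6, so the build is unsettled. FPKM values are scaled to all fragments, haemoglobin included. Of the cells with 1 to 12 counts, 29.0% hold 4, 16.0% hold 8 and 9.75% hold 12, so a fragment may be worth about 4 counts.

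Estimated counts, deposited as whole numbers, were tested with edgeR 4.0.16 (quasi-likelihood, R 4.3.3), all 12 libraries in a single fit with 4 group means, scaled by total counts of 52.2e6 to 65.1e6. Only genes that reached an FPKM of 1 in 3 or more libraries were tested. A gene was called at a Benjamini-Hochberg adjusted p under 0.05 over all 5527 genes and a fold change over 2. Standard errors came from the change and its F statistic. Fits were checked on simulated counts. Alternatives were TMM, haemoglobin scaling or removal, DESeq2 1.42.0, limma 3.58.1 on log2(FPKM + 1) and log2(FPKM + 0.1), other filters, counts divided by 4, the compared groups alone, a replicate block and the omission of each library. A fit with replicate 1 as the only scivMSC library was added after seeing the data.

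The members and lists were chosen with earlier results of these data known. Genes named are the 8 members, the listed membrane genes called in DNCB against Solvent or in either MSC group against DNCB, Rhd, Xk and Dmtn, and for each member the 3 tested genes most correlated with it, without predicted genes. Some genes that fall under these rules are not reported here. Late erythroid marker genes named in the closing section were chosen after their values were seen. The labels do not say how mice were processed, so p-values measure the spread between these libraries, and the 95% intervals, from the same fit, include that spread, whereas fragment numbers cover counting error only. The authors' pathway annotations were not used.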

Additional observations from a re-analysis of the deposited data

Results flagged for a closer look

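Epb41, protein 4.1, differed between the 2 MSC groups under the same contrast with DNCB. Its log2 fold change was -1.18 in scMSC and 0.10 in scivMSC against DNCB, and the test of the difference itself gave 1.27 (SE 0.27, edgeR adjusted p = 0.0104). All 3 scivMSC libraries lay above all 3 scMSC libraries. It kept its call in 22 of 23 alternatives and lost it in a fit of those 6 libraries alone (edgeR adjusted p = 0.0518). With replicate 1 as the only scivMSC library, a fit added after seeing the data, the difference was 0.41, where the median of all tested genes was -0.37.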

How the results depend on the processing

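The counts of called members in scivMSC depended on the scaling. In scivMSC against DNCB 0 became 6 under TMM, 6 with DESeq2 and 4 with haemoglobin left out of the totals; in scivMSC against Solvent 0 became 6, 6 and 3; in scivMSC against scMSC 1 became 5 under TMM and 5 with DESeq2, and 0 with the 2 groups alone. A fit with replicate 1 as the only scivMSC library, chosen after seeing the data, gave member medians of 0.64, 0.43 and 0.52 in these 3 contrasts by total counts. The medians of all tested genes were -1.04, -0.94 and -0.37, and Epb41 was at -0.77, -1.01 and 0.41. Under TMM the member medians were 1.64, 1.31 and 0.89. Those of all tested genes were 0.01, -0.03 and -0.01, and Epb41 was at 0.23, -0.13 and 0.75. In scMSC against DNCB 2 became 1 under haemoglobin scaling, with haemoglobin left out, with limma on log2(FPKM + 1), without a filter, at a mean FPKM of at least 5 (which left Slc4a1 and Epb41) and with the replicate block. In scMSC against Solvent 1 became 0 under TMM, DESeq2 and the replicate block. Omitting 1 library gave 1 to 2 called members in scMSC against DNCB, 0 to 1 in scivMSC against DNCB (1 without DNCB replicate 2, Gypc, or 3, Epb42) and 0 to 1 in scMSC against Solvent (0 without Solvent replicate 1 or 3 or any scMSC library), and left 0, 0 and 1 in DNCB against Solvent, scivMSC against Solvent and scivMSC against scMSC. For the wider list, 2 calls in DNCB against Solvent became 4 under TMM, DESeq2, haemoglobin left out and the 2 groups alone, and 1 to 4 over omissions (1 without DNCB replicate 2, 4 without scivMSC replicate 1 or 2). Its 6 calls in scMSC against DNCB became 3 to 6 over omissions (3 without scMSC replicate 2 or 3). Its 7 calls in scivMSC against DNCB became 23 under TMM, 23 with DESeq2, 17 with haemoglobin left out, 4 with limma on log2(FPKM + 1), 2 at a mean FPKM of at least 5, and 6 to 11 over omissions (11 without DNCB replicate 3). The haemoglobin share over the groups had an exact permutation p of 0.0593 by FPKM and 0.00786 to 0.102 over omissions. The cause of these changes was not tested. For some settings this report gives no share of all tested genes called. They include haemoglobin left out, the 2 groups alone, a mean FPKM of at least 5, the replicate block and the omissions. DESeq2 in scivMSC against scMSC is another. Counts of called members or listed genes under them cannot be set against that share.

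Of 582 alternative values for 26 member contrasts, 500 kept direction and side of the threshold, 28 became called, 25 lost a call and 29 changed sign. Changed signs under TMM, haemoglobin left out and DESeq2 were those of Slc4a1 in scMSC against DNCB (0.42, 0.14 and 0.36), Epb41 in scivMSC against Solvent (1.54, 0.36 and 1.59) and Gypc in scivMSC against scMSC (0.89, 0.067 and 0.94). Slc4a1 in DNCB against Solvent was -0.044 under TMM and -0.075 with haemoglobin left out, Kel in scMSC against DNCB was 0.27 under TMM and 0.21 with DESeq2, and Epb41 in scivMSC against DNCB was -0.016 under haemoglobin scaling. Omissions gave ranges across 0 for Slc4a1 in DNCB against Solvent (-0.23 to 0.30) and scMSC against DNCB (-0.37 to 0.070), Sptb in scivMSC against scMSC (-0.061 to 0.41), Epb41 in scivMSC against DNCB (-0.10 to 0.39) and against Solvent (-0.35 to 0.15), Epb42 in DNCB against Solvent (-0.52 to 0.15) and scMSC against DNCB (-0.014 to 0.64), Gypc in scivMSC against scMSC (-0.36 to 0.056) and Kel in DNCB against Solvent (-0.068 to 0.46). Groups share replicate numbers, but the deviations of same-numbered libraries correlated at -0.20 to 0.17 (18 pairs, median 0.04, 3 over 0.1), and no label ties the numbers to a batch, so they were not taken to pair the mice. As a hint from the data, 7 of 12 libraries correlated best with their own number, and Slc4a1 was lowest in replicate 2 in Solvent, DNCB and scMSC. The replicate block changed 2 of the 26 values. At 29 to 169 counts, Rhag is the member whose values depth limits most.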

Other observations

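Among the reticulocyte and late erythroid markers, 15 of the 17 genes in the table were tested, and the mitochondrial iron importer Slc25a37 (mitoferrin) had changes close to those of Epb41 in the MSC groups. The list as a whole did not share them. In scMSC against DNCB, Slc25a37 was the 1 marker called lower and 2 were called higher, where 24.9% of all tested genes were called lower and 1.27% higher. Of the 15 log2 fold changes 8 were above 0, with a median of 0.05. Its FPKM was 42.9, 28.5 and 37.0 in Solvent, 55.6, 64.1 and 73.4 in DNCB, 35.7, 21.2 and 29.2 in scMSC and 59.1, 74.0 and 66.4 in scivMSC. Its log2 fold change was -1.18 in scMSC against DNCB (SE 0.23, edgeR adjusted p = 0.00174) and 1.22 in scivMSC against scMSC (SE 0.23, edgeR adjusted p = 0.00815). The change from Solvent to DNCB was 0.83 (edgeR adjusted p = 0.015), short of 2-fold. Under TMM the value in scMSC against DNCB was -0.53 (edgeR adjusted p = 0.226). The likeness to Epb41 lay in the group values and not in scivMSC replicate 1. There Slc25a37 was at 59.1 FPKM, near its group, whereas Epb41 was at 25.1, against 58.1 and 54.6 in replicates 2 and 3.

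Gata1, the transcription factor of erythroid and megakaryocyte cells, was higher in both MSC groups, by a log2 fold change of 1.91 in scMSC (edgeR adjusted p = 0.000741) and 2.13 in scivMSC (edgeR adjusted p = 4.84e-05) against DNCB. Its FPKM was 1.50 to 3.11 in Solvent, 1.95 to 2.39 in DNCB, 7.06 to 9.31 in scMSC and 8.24 to 10.8 in scivMSC. Under TMM both values were also called, at 2.61 and 3.87. Platelet markers summed to 371 to 589.6 FPKM in Solvent, 590.1 to 799.9 in DNCB, 703 to 903 in scMSC and 723 to 841 in scivMSC. Pf4 weighs heavily in this sum, with means of 239 FPKM in DNCB and 389 in scMSC. By total counts 2 of the 8 platelet markers had a log2 fold change above 0 in scMSC against DNCB, with a median of -0.26. In scivMSC against DNCB 5 of 8 did, with a median of 0.22. The part of the platelet markers in the Gata1 values was not tested.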
